A study of Mus musculus with 18 samples.

Results

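Gene expression in sorted ear cartilage cells of mice at postnatal day 10 (P10) was compared with that at postnatal day 8 (P8), over the genes that reached 1 FPKM in at least 3 of the 6 libraries concerned. FPKM divides the fragment count of a gene by its length and by the total of mapped fragments in its library. Of 46983 genes listed, 9918 met this limit, and 8948 of those were protein-coding. The series profiled lipochondrocytes, the lipid-storing chondrocytes of the ear, at P8, P10, P13, P21 and P33, beside inguinal adipocytes of P33. All groups carried the genotype Wnt1-Cre2;TdTomato on the C57BL/6 background. At P8, P10 and P13 the ear cartilage plate was digested with collagenase and cells above a high TdTomato gate were sorted, so P8 and P10 share genotype, gate and extraction. Each group had 3 libraries, and nothing states whether these came from separate animals, litters or pools. The spread behind the p-values was pooled over the libraries of all 6 groups, and it may be technical. It is not the spread of P8 and P10 alone, so a gene whose P8 and P10 libraries do not overlap may still not be called. Wnt1-Cre2 drives Cre recombinase in the neural crest lineage, and the reporter marks every descendant of a recombined cell. The gate therefore holds no marker of lipochondrocytes themselves, and other neural crest derivatives, such as dermal and perichondrial fibroblasts of the head or Schwann cells, could pass it. Age and preparation cannot be told apart, since each stage was prepared as 1 group.

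Elastic cartilage of the mouse ear holds its shape through a network of elastin, collagen II and proteoglycans, and its lipochondrocytes fill with lipid during the postnatal weeks. A fibroblast-rich sheath, the perichondrium, surrounds the plate. Cells answer growth factors, stretch, wounding and handling within minutes by immediate early genes, which encode short-lived transcription factors and feedback inhibitors and need no new protein to be switched on.

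The cells of both stages carried cartilage transcripts at high levels. After scaling, described next, elastin (Eln) stood at 32741, 27545 and 34318 FPKM in the P8 libraries and at 54986, 38387 and 32690 in the P10 libraries. Collagen II (Col2a1) stood at 5359, 5056 and 6663 at P8 and 8695, 6508 and 8360 at P10. The chondrocyte transcription factor Sox9 lay between 218.2 and 274.4 in all 6. Adipoq, which encodes the fat cell hormone adiponectin, was listed at 0 in all 6 libraries, as were Cfd, Lep and Pck1 of the adipocyte list. These markers are those of cartilage cells, whereas the lipid genes Scd1, Dgat2 and Plin2 were far below their P13 levels at both stages, as given further on.

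FPKM as deposited put P10 below P8 for most genes, with a median log2 difference of -0.24 over the 9918 genes. Each library was therefore divided by a median-of-ratios factor, the median over genes of its value relative to the geometric mean of 18 libraries. Factors were 0.815, 0.867 and 0.983 for P8 and 0.662, 0.695 and 0.751 for P10, which do not overlap, and the median difference became 0.025. Values below are scaled FPKM, and differences are on the log2(scaled FPKM + 1) scale, P10 minus P8, which understates changes of low genes. The 20 most abundant genes took 35.1% to 38.7% of the FPKM of a library, with no separation of the stages. The median scaled difference was 0.222 in the 1984 most abundant genes, -0.046 in the 1984 least abundant, and 0.121 in the 1978 with the shortest transcripts. Total reads were 18446349 to 22118887 at P8 and 14424865 to 27640142 at P10, and alignment rates 77.44% to 84.44% and 81.89% to 83.15%. Between 9891 and 10558 genes reached 1 FPKM in a P8 library and between 9254 and 9537 in a P10 library.

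**Figure D1:**
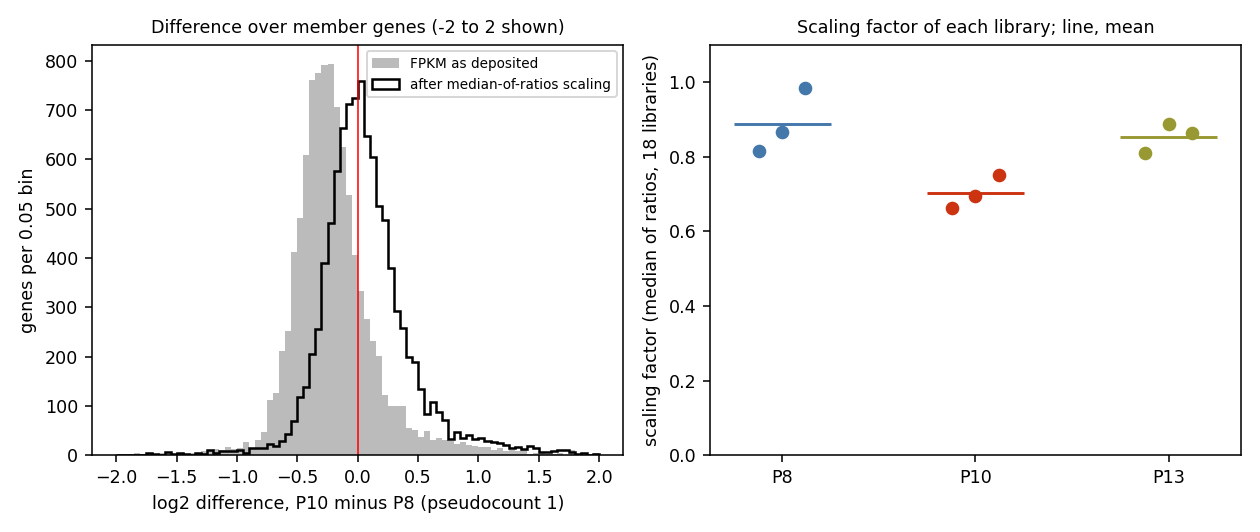
Left, number of genes (y) by log2 difference between P10 and P8 (x), for FPKM as deposited (grey) and after scaling (black outline); right, the scaling factor (y, no unit) of each library of P8, P10 and P13. The deposited differences centre on -0.24 and the scaled ones on 0.025, and the 3 P10 factors, 0.662 to 0.751, lie below all P8 factors.

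With limma over all 18 libraries and Benjamini-Hochberg adjustment, 455 of the 9918 genes were higher at P10 (4.59%) and 115 were lower (1.16%), together 5.75%. Values as deposited gave 247 higher (2.49%) and 1225 lower (12.4%). All 247 were also higher after scaling and all 115 were also lower as deposited, so that the calls shared by both number 247 higher (2.49%) and 115 lower (1.16%), and 0 genes were called in opposite directions. The share of calls that were higher was 79.8% after scaling and 16.8% as deposited. In 1549 genes (15.6%) all P10 libraries were above all P8 libraries, and in 1050 (10.6%) all were below. At an unadjusted p under 0.05, 1979 genes differed. Of the called genes, 220 at least doubled and 26 at least halved. The third P8 library stood apart from the other P8 libraries: it correlated with them at 0.957 and 0.958 over the genes, against 0.977 between those, and without it the counts were 572 higher and 136 lower.

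**Figure D2:**
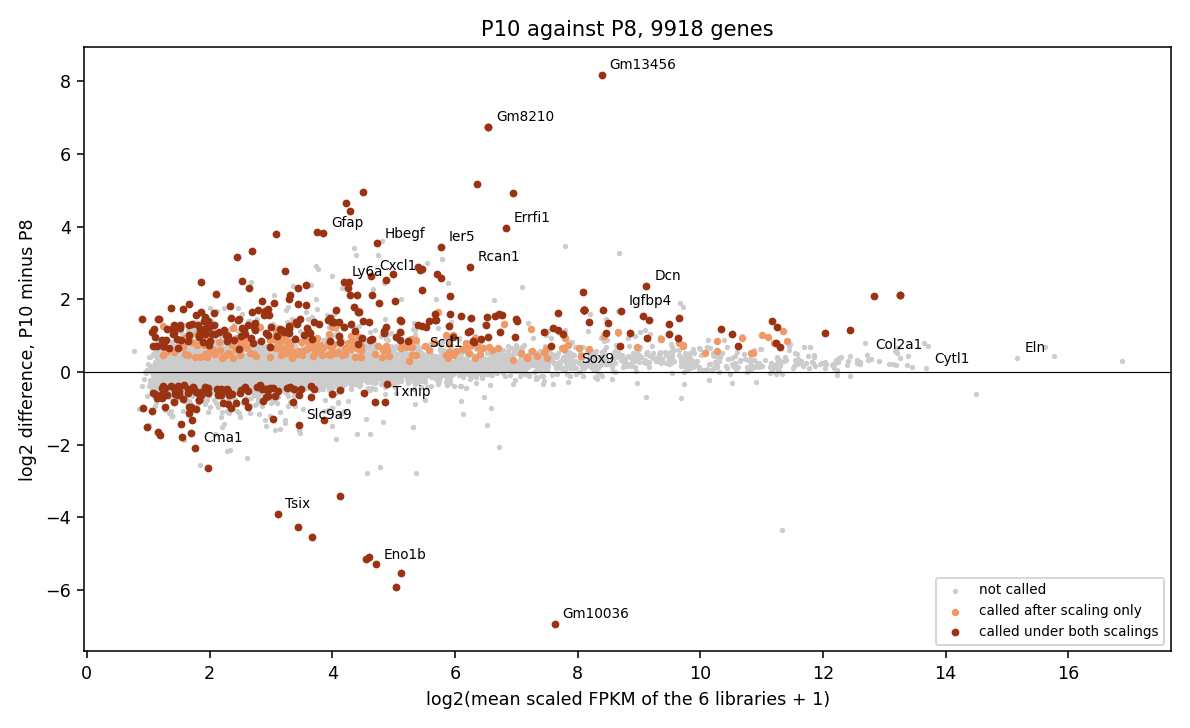
Each point is 1 of 9918 genes, with its mean level over the 6 libraries (x, log2 of scaled FPKM plus 1) and its log2 difference, P10 minus P8 (y). Dark points were called under both scalings, orange points after scaling only; cartilage genes such as Eln and Col2a1 lie at the right, near 0, and Errfi1, Gfap and Hbegf among the largest rises.

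Most immediate early genes rose. Of 37 immediate early genes among the members (38 listed), 25 rose and 0 fell, 20 of them under both scalings, against a background of 4.59% and 2.49%. Their median difference was 0.92, and 0.61 as deposited, beside 0.025 and -0.24 over all members. In 31 of the 37 all P10 libraries were above all P8 libraries, against 15.6% of all members. Without the third P8 library, 25 of the 37 rose as well.

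The largest rise of a single-copy gene was that of Errfi1, which encodes an inhibitor of the EGF receptor kinase made in response to that receptor. Its levels were 11.8, 13.9 and 12.1 at P8 and 206.8, 211.3 and 220.8 at P10, with 17.3 to 19.5 at P13. The 3 P10 libraries agree closely and lie far above the others, a difference of 3.98 (SE 0.14, limma adjusted p = 2.26e-10). Hbegf, which encodes a ligand of the same receptor, stood at 3.3, 3.4 and 2.89 at P8 and at 47.5, 46.7 and 48.9 at P10 (3.54, SE 0.19, limma adjusted p = 1.68e-08), and at 6.55 to 7.99 at P13. Ligand and inhibitor were thus both high in the P10 libraries alone among these 3 stages. Neither gene is on the immediate early list counted above, whose largest rise was 3.45.

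Rcan1, a feedback inhibitor of the phosphatase calcineurin, was at 15.1, 15.6 and 19.9 at P8 and at 151.6, 111.8 and 134.1 at P10, a rise of 2.90 (SE 0.17). Arc, best known as an immediate early gene of neurons, went from 1.33 to 1.41 at P8 to between 13.9 and 16.2 at P10 (2.79, SE 0.09). The AP-1 subunit gene Fosl1 lay between 0.65 and 0.82 at P8 and between 7.16 and 9.77 at P10 (2.5, SE 0.10), and was back at 0.59 to 0.81 at P13. Myc, a growth-promoting transcription factor, rose from 19.3, 27.1 and 19.9 to 95.1, 91.6 and 103.3 (2.10, SE 0.16). Gadd45a, a stress sensor of the cell cycle, rose from 13.2, 16.7 and 13.7 to 93.7, 88.5 and 95.8 (2.60, SE 0.22). For each of these genes the P8 and P10 libraries do not overlap. Fosl1 passed the limit of 1 FPKM through its P10 values alone, so it had to differ.

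In 2 of the strongest risers the third P8 library was partly raised. Ier5, which encodes a regulator of the heat shock factor, stood at 3.95, 3.37 and 29.5 at P8 and at 89, 79 and 118.7 at P10. Cebpb, the transcription factor C/EBP beta, stood at 6.67, 5.99 and 21.8 and at 83.3, 72.3 and 69.8. Their rises of 3.45 (SE 0.50) and 2.83 (SE 0.37) were not called in 3 alternative fits that used only these 6 libraries. The third library did not show this in Errfi1, Hbegf, Arc or Fosl1.

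Some abundant immediate early genes were not called. Fos stood at 7676, 8198 and 6507 at P8 and at 10599, 11468 and 11251 at P10, a difference of 0.58 that was not called (interval -0.26 to 1.42, limma adjusted p = 0.524), and at 12137 to 12961 at P13. Jun (0.27, limma adjusted p = 0.319) and Egr1 (0.63, limma adjusted p = 0.293), both chosen after their values were seen, were not called either. Fos was thus already abundant at P8. Other abundant members of the list were called, also chosen after their values were seen. The mean of Zfp36 rose from 1929 to 3114 under both scalings, and that of Junb from 1714 to 3017 after scaling only. Among further risers chosen after their values were seen, Nr4a1, an orphan nuclear receptor, went from 242.3 to 313.3 up to 774.5 to 836.7, the kinase phosphatase gene Dusp1 from 338.6 to 460.4 up to 915.9 to 1143, and Atf3 from 191.9 to 217.3 up to 492.3 to 534.7. Atf3 was higher still at P13, at 643.5 to 792.7, whereas Nr4a1 was lower there, with a mean of 541.4. F3 (tissue factor, 2.46), Trib1 (2.32) and Edn2 (endothelin 2, 2.11), also chosen after their values were seen, rose with no overlap of the groups.

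**Figure D3:**
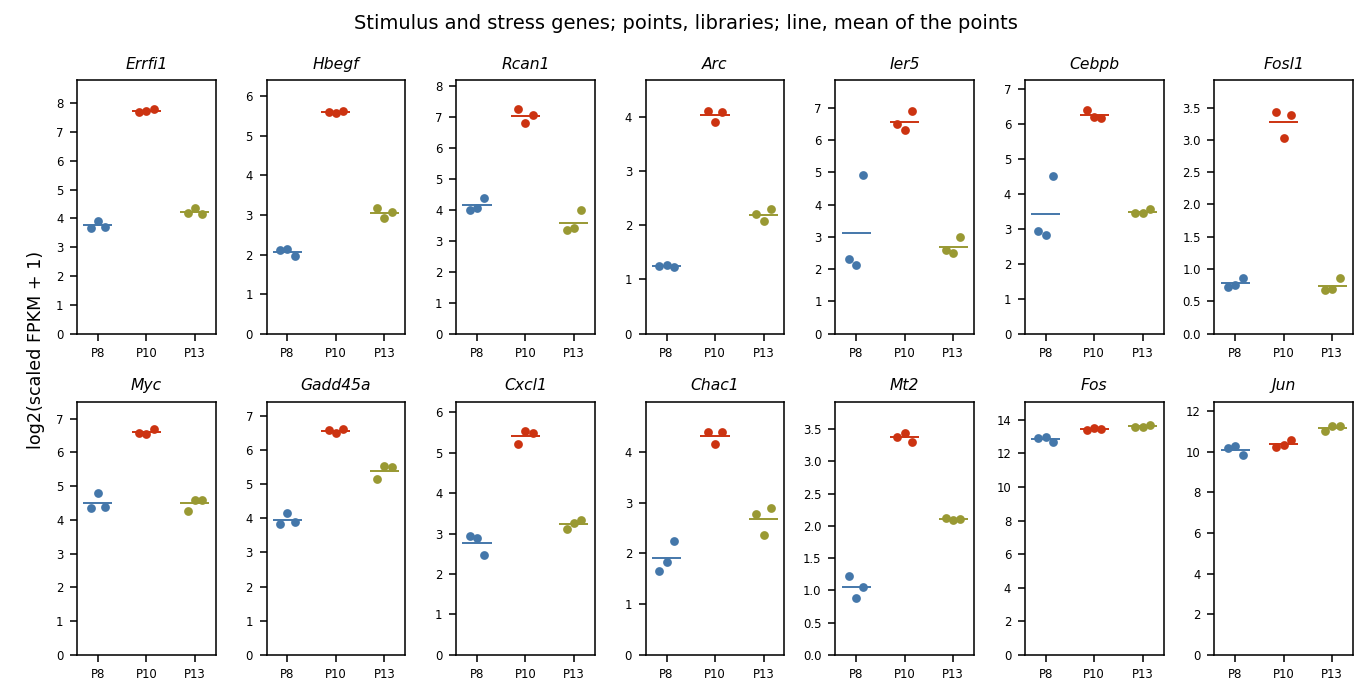
Levels (y, log2 of scaled FPKM plus 1, axis from 0) of 14 stimulus and stress genes in each library of P8, P10 and P13; lines mark the mean of the points. The P10 libraries are above all others in Errfi1, Hbegf, Rcan1, Arc and Fosl1, while Fos and Jun are higher at P13 than at P10.

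Promoter windows are shown for some risers whose first 250 bases upstream of a RefSeq start hold a known response motif. They were picked for holding a motif, and whether genes with a motif moved together was not tested. The sequences are those of RefSeq on build GRCm38.p6, 5′ to 3′ on the strand of the gene, with the matches to the motif named for each gene in capitals; matches to other motifs are not marked. The motif is the CRE in Errfi1, Rcan1 and Dusp1, the CArG box in Egr2, TGATGNAA in Chac1 and the MRE in Mt2. CRE stands for the cyclic AMP response element TGACGTCA, which also binds ATF and AP-1 dimers, the CArG box binds serum response factor, TGATGNAA is the C/EBP-ATF composite read by ATF4, and MRE is the metal response element TGCACNC or TGCGCNC. Both strands were searched.
Errfi1 chr4:150854870-150855069: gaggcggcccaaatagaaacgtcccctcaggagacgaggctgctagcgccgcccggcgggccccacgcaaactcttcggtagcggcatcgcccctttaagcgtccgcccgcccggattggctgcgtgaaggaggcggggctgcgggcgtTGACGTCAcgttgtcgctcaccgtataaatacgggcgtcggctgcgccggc
Rcan1 chr16:92400079-92400278: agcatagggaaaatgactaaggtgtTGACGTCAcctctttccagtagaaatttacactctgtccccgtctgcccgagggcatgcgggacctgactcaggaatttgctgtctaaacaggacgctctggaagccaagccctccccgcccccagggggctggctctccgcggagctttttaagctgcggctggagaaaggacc
Dusp1 chr17:26508523-26508672: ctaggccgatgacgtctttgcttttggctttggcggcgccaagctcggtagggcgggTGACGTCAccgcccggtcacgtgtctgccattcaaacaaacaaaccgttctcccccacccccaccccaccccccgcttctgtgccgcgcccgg
Egr2 chr10:67537366-67537565: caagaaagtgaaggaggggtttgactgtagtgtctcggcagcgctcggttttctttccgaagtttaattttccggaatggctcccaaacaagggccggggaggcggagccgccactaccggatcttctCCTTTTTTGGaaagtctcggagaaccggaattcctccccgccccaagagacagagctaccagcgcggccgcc
Chac1 chr2:119351039-119351241: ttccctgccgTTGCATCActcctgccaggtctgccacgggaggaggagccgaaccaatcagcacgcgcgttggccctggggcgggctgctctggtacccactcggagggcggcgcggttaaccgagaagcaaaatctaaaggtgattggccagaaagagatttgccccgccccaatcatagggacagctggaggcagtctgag
Mt2 chr8:94172385-94172617: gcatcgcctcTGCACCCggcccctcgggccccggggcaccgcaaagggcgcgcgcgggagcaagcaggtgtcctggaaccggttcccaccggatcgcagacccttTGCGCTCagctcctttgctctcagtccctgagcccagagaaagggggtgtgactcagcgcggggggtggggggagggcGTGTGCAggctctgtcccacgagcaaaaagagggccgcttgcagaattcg
The Errfi1 match begins 51 bases before the start, that of Rcan1 175, that of Dusp1 143, that of Egr2 72 and that of Chac1 193, where it reads on the other strand. The 3 matches of Mt2 begin 223, 128 and 50 bases before its start. In GENCODE M21, the windows of Errfi1, Rcan1, Dusp1 and Egr2 lie in introns of longer transcripts of the same gene. That of Errfi1 also shares 80 bases with an exon of the antisense 1700045H11Rik, that of Mt2 lies whole in an exon of the antisense Gm45774, and the last 13 bases of that of Chac1 are in its first exon.

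Of the 25 immediate early risers, 22 matched the promoter table, with 33 promoters. A CRE was found in 2 of the 33, in Dusp1 and Maff, against 1.55% of all 32851 promoters, and a CArG box in 5, in Egr2 and Zfp36, against 1.47%. The CREs of Errfi1 and Rcan1 printed above are not in this count. TGATGNAA was found in 2 of 33, against 3.45% of all, and the AP-1 site TGANTCA in 0, against 6.75%. Several promoters of 1 gene overlap, so these are counts of windows and not of genes. A match describes the letters only.

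Stress genes of the endoplasmic reticulum and of oxidation rose in part. Of 29 genes of protein folding and stress in the endoplasmic reticulum, 8 rose and 0 fell, 5 under both scalings. Over all members 4.59% rose, or 2.49% under both scalings. The median of the list was 0.36 (0.08 as deposited). The risers were mainly genes of the ATF4 arm, which answers amino acid shortage and misfolded protein: Chac1, Trib3, Atf4, Ddit3 and Sesn2, all under both scalings. Chac1, which encodes a glutathione-degrading enzyme, stood at 2.15, 2.56 and 3.74 at P8 and at 19.9, 16.9 and 20.1 at P10, a rise of 2.4 (SE 0.17, limma adjusted p = 4.20e-07), and at 4.12 to 6.45 at P13. The main chaperone gene Hspa5 was at 315.6 to 454.1 and at 587.2 to 666.5, called after scaling only (0.69). Its mean at P13, 1018, was above both. TGATGNAA was found in 2 of the 8 promoters of this set, those of Chac1 and Herpud1, and the AP-1 site in 2 of 8 (25%), against 3.45% and 6.75% of all promoters.

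Of 25 genes of oxidative stress, NRF2 targets and metallothioneins, 8 rose and 0 fell, 6 under both scalings. The background was again 4.59%, or 2.49% under both scalings. The metallothionein genes, whose products bind zinc and copper, rose together. Mt1 stood at 5.77, 6.71 and 3.87 at P8 and at 22.7, 34.5 and 35.2 at P10 (2.30, SE 0.31), and Mt2 at 1.32, 0.842 and 1.08 and at 9.39, 9.85 and 8.81 (2.32, SE 0.29). At P13 Mt1 was at 22.2 to 24.2, below 2 of the P10 libraries, and Mt2 was between the stages, at 3.24 to 3.35. Osgin1 (1.67, SE 0.16) and Srxn1 (1.51, SE 0.24), both targets of NRF2, rose as well. Nqo1 and Gclm, named from the same list after their values were seen, differed by -0.06 and 0.28 and were not called. A metal response element was found in 5 of the 11 promoters of the risers, against 21.4% of all promoters, and the AP-1 site in 3 of 11 (27.3%), against 6.75%.

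Heat shock genes did not move as a group. Of 24 members, 3 rose and 1 fell, against 4.59% and 1.16% of all members. Without the third P8 library 1 riser was left, and 0 without the first P10 library. The median was 0.19, or -0.12 as deposited. Bag3, a co-chaperone gene, rose from 5.73, 4.95 and 11.9 to 26, 17.1 and 22.3 (1.49, SE 0.31), and the call was lost in 6 of 17 alternatives, among them those without the first or the second P8 library and without the first P10 library. Hspa1b, an inducible Hsp70 gene, fell from 18.6, 15.2 and 10.6 to 8.64, 7.71 and 9.17 (-0.70, SE 0.18, limma adjusted p = 0.0398), a call lost in 11 of 16 alternatives, and it shares reads with the near-identical Hspa1a.

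Of 14 chemokine and inflammatory genes among the members (29 listed), 7 rose and 0 fell, 5 under both scalings. Over all members 4.59% rose, or 2.49% under both scalings. Cxcl1, a neutrophil attractant, stood at 6.65, 6.41 and 4.55 at P8 and at 36.1, 45.6 and 44.1 at P10 (2.65, SE 0.12, limma adjusted p = 3.31e-09). Cxcl12, which holds CXCR4-bearing cells in place, rose from 8.35, 7.46 and 8.7 to 30, 30.7 and 31.2 (1.79, SE 0.13) and was at 3.81 to 4.2 at P13. Cxcl10, an interferon-induced chemokine gene, rose from 2.46 to 3.89 up to 9.21 to 12.7 (1.57, SE 0.16). Of 13 interferon and antigen presentation genes, 1 rose, Ifitm3 (1.32, limma adjusted p = 0.0483), which was not called as deposited or with any 1 of the 6 libraries left out.

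Most listed genes of fibroblasts and perichondrium rose as well. Of 17 members (20 listed), 13 rose and 0 fell, 8 of them under both scalings, with a median of 1.20 (0.92 as deposited), and all P10 libraries were above all P8 libraries in 15. Over all members, 4.59% rose, 2.49% under both scalings, and all P10 libraries were above all P8 libraries in 15.6%. The fibroblast list was chosen with earlier results of these libraries known. Without the third P8 library 12 rose. More cells of a type and more RNA per cell cannot be told apart in such bulk samples.

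Dpt, which encodes the dermal matrix protein dermatopontin, stood at 11.5, 9.52 and 6.58 at P8 and at 70.1, 78.5 and 71.3 at P10, a rise of 2.89 (SE 0.21, limma adjusted p = 5.12e-07). Clec3b (tetranectin) rose from 11.4, 12.3 and 15.3 to 93.6, 74.2 and 100.1 (2.69, SE 0.29). Ly6a, the surface marker Sca-1 of mesenchymal progenitors, went from 3.95, 4.61 and 4.97 to 32.1, 30.4 and 27.3 (2.49, SE 0.17). Dcn, which encodes the collagen-binding proteoglycan decorin, was at 181.6, 209.5 and 151 and at 905.7, 949.9 and 942.1 (2.37, SE 0.28). In all of these genes the P13 libraries, at 11.9 to 15.9, 11.9 to 17.3, 7.12 to 8.94 and 227.9 to 277.2, lay far below P10.

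Col1a1, the main collagen of fibroblasts and bone, stood at 1507, 1450 and 1992 at P8 and at 4064, 2817 and 3885 at P10. Its difference of 1.12 (SE 0.29) passed narrowly (limma adjusted p = 0.0434), was not called as deposited (limma adjusted p = 0.1) and was lost in 10 of 17 alternatives, those without P8 library 1 or 2 and P10 library 1 or 3 included. Col14a1, a collagen of perichondrium, was at 16.8 to 19.1 and at 27.2 to 30.3 and was not called (0.64, limma adjusted p = 0.0996). Pdgfra, a receptor gene of fibroblasts (0.20), and Col12a1 (0.04) were not called and their libraries overlapped. The summed level of all 20 listed genes was 5064 to 5672 at P8, 11054 to 13388 at P10 and 3276 to 3987 at P13. It was 5870 to 11391 at P21 and 7834 to 15080 at P33, so a high sum was not particular to P10. Col1a1 was the highest of these genes, with a mean of 2619 over the P8 and P10 libraries. The part of these genes in the other rises was not tested.

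Other matrix lists, some of which share genes with that one, rose in part, against a background of 4.59%, or 2.49% under both scalings. Of 11 small leucine-rich proteoglycans, Dcn and Lum of the list above included, 5 rose, 2 under both scalings and 3 without the first P10 library. The 2 were Dcn and Aspn, which encodes the growth factor binder asporin (39.2 to 59.8 at P8, 140.4 to 179 at P10; 1.60, SE 0.23). Of 19 elastic fibre genes 4 rose, 3 under both scalings. Mfap5, a microfibril gene, went from 8.91, 8.66 and 11.7 to 82.5, 72.7 and 68.1 (2.82, SE 0.33), Efemp1 rose by 1.16 (SE 0.17), and Loxl2, a crosslinking enzyme gene, by 1.07 (SE 0.18). Of 22 collagen processing genes 4 rose, with only Pcolce, the enhancer of procollagen cleavage, under both scalings (63.6 to 69.6 and 175.2 to 191.5; 1.45, SE 0.28). The 4 became 1 without the first P8, the first P10 or the third P10 library, and 2 without the second P8 library.

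Most genes that define elastic cartilage were not called. Of 22 cartilage matrix genes 3 rose, Cilp, Matn2 and Fmod, and 1 fell, Epyc, against 4.59% and 1.16% of all members, with a median of 0.39 (0.06 as deposited). Epyc, which encodes epiphycan of the growth cartilage, went from 4.75, 5.77 and 4.43 to 2.51, 2.42 and 2.00 (-0.85, SE 0.12) and was at 7.93 to 8.24 at P13. Eln differed by 0.39 (interval -0.14 to 0.91) and Col2a1 by 0.46 (0.17 to 0.76, limma adjusted p = 0.0786), and neither was called. Acan, the core protein gene of aggrecan, was not called (0.72, interval -0.06 to 1.5); the third P8 library, at 286.8, lay above 2 of the P10 libraries. Cytl1, a small secreted protein of chondrocytes, was at 14291, 14557 and 9620 and at 13397, 14164 and 12874 (0.10, interval -0.37 to 0.56). Chad (chondroadherin) was at 44.1 to 61.1 and at 89.1 to 117.3, without overlap but not called (1.00, limma adjusted p = 0.17). Of 9 chondrocyte transcription factors 0 rose and 0 fell, with differences from -0.24 to 0.19, and Sox9 at 0.10 (interval -0.31 to 0.51); Sox9 and Cytl1 were below 0 as deposited, at -0.24 each.

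**Figure D4:**
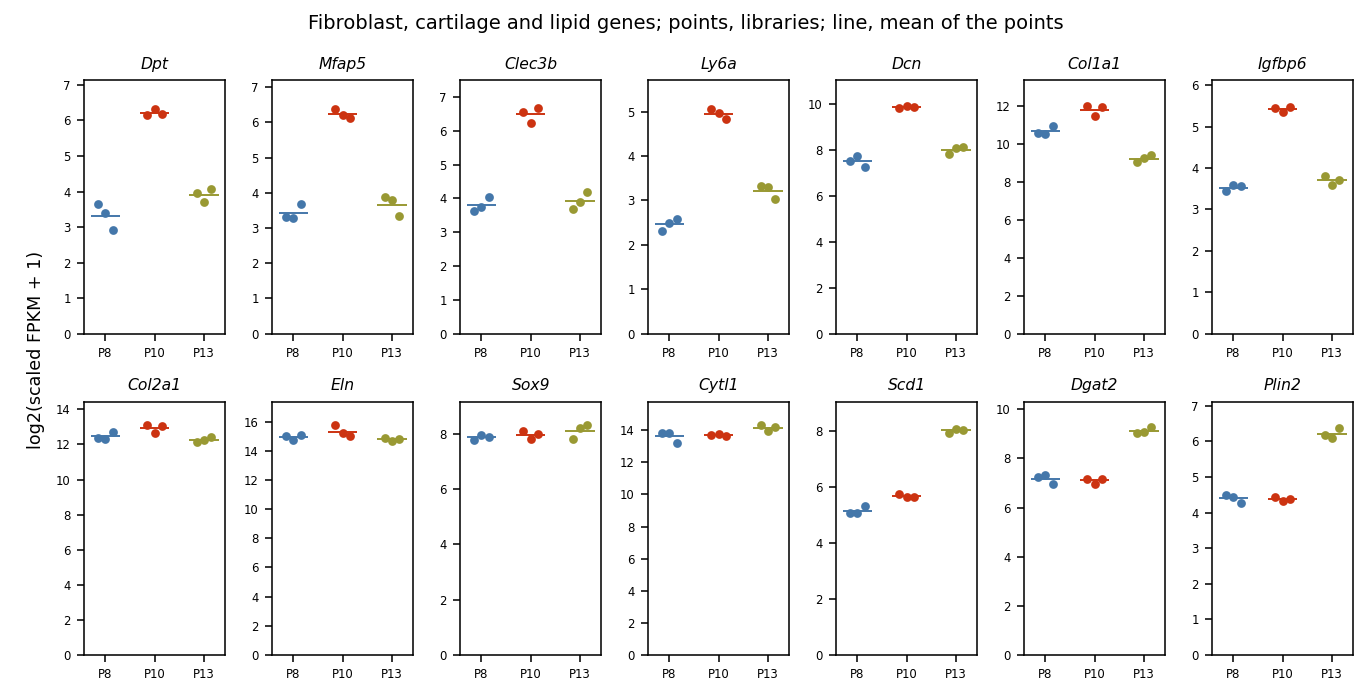
Levels (y, log2 of scaled FPKM plus 1, axis from 0) of 7 fibroblast and matrix genes and 7 cartilage and lipid genes in each library of P8, P10 and P13; lines mark the mean of the points. Dpt, Ly6a and Dcn are high at P10 only, Col2a1, Eln and Sox9 lie near the same level at each stage, and Scd1, Dgat2 and Plin2 are higher at P13 than at P8 and P10.

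Few lipid genes were called between P8 and P10. Of 15 fatty acid synthesis genes 1 rose, Me1 (0.82, after scaling only, a call lost in 9 of 17 alternatives). Of 11 triglyceride synthesis genes 0 were called, and of 12 droplet coat and lipolysis genes 0. Over all members 5.75% were called, so such small counts are near the background and do not set lipid genes apart. Scd1, the stearoyl-CoA desaturase, was at 32.7, 32.7 and 39.0 and at 53.2, 48.6 and 49.5 (0.53, interval 0.01 to 1.05, limma adjusted p = 0.291), against 247.6 to 271.5 at P13. Dgat2, which makes triglyceride, was at 122.7 to 159.5 and 124.1 to 143.9 (-0.07, interval -0.44 to 0.31), and the droplet coat gene Plin2 at 18.2 to 21.5 and 19.2 to 20.8 (-0.01, interval -0.29 to 0.26). These intervals exclude a doubling for Dgat2, Plin2 and Fasn (0.25, interval -0.15 to 0.65). G0s2, an inhibitor of lipolysis, differed by -0.28 and was called lower only as deposited (-0.61, limma adjusted p = 0.0355). Lpl, the lipase that frees fatty acids from lipoproteins, rose under both scalings, from 2.8, 2.4 and 3.02 to 15, 14.6 and 15.8 (2.11, SE 0.14, limma adjusted p = 1.33e-07), and was back at 3.22 to 4.41 at P13.

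Calls in energy metabolism depended on the scaling. Of 22 fatty acid oxidation genes 0 changed after scaling (median -0.11), while 10 were lower as deposited (median -0.39), against 12.4% of all members. Of 76 mitochondrial ribosomal proteins 1 was lower after scaling (Mrpl16, not called without P8 library 1 or 2 or without P10 library 1 or 3) and 16 as deposited. Of 35 proteasome subunits 0 and 6 were lower, and of 81 nuclear-encoded respiratory chain genes 0 and 4, shares that are near or under that background. Their deposited medians, -0.37, -0.26 and -0.15, stand beside the -0.24 of all members. Of 81 cytosolic ribosomal protein genes 1 rose, Rps25, with a median of 0.19. Cholesterol synthesis had 4 risers of 22 after scaling, among them Insig1 and Msmo1, and 0 as deposited; 0 rose without the first P8, the first P10 or the third P10 library, 1 without the second P8 and 2 without the third P8 library. Of 26 proliferation genes 2 rose, a share near the 4.59% of all members. These were Ccnb1, a call lost in 13 of 16 alternatives, and the cell cycle inhibitor Cdkn1a (44.5 to 58.9 and 111.7 to 145; 1.3), called under both scalings.

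Growth signalling showed a few single rises, to be read against the 4.59% of all members that rose. Of 14 genes of the insulin-like growth factor axis 2 rose, both binding proteins: Igfbp4 from 206.6, 199.8 and 184.7 to 657.2, 570.6 and 687.2 (1.69, SE 0.31), and Igfbp6 from 9.82, 11.0 and 10.7 to 42.4, 40 and 43 (1.89, SE 0.42), the second not called without P8 library 1 or without P10 library 1 or 3. The ligand gene Igf2 was at 1289 to 1604 and 1711 to 2701 and was not called (0.61, limma adjusted p = 0.417). Of 17 imprinted growth genes 4 rose under both scalings, the regulator Plagl1 (5.84 to 8.57 and 20.6 to 21.6; 1.43, SE 0.22), Mest (1.20), Gnas (0.80) and Dcn. H19 (0.83) and Dlk1 (1.60, limma adjusted p = 0.0562) were not called, and the third P8 library, at 310.7, put Dlk1 of P8 into the range of P10. Sfrp2, a Wnt antagonist gene, rose from 31.4, 35.2 and 35.4 to 104.9, 95.7 and 103.8 (1.55, SE 0.18) and was at 7.63 to 8.97 at P13; with Dkk2 it made 2 of 24 Wnt genes, near that background. Of 15 hedgehog and FGF genes, the feedback inhibitors Spry1 (0.85) and Spry2 (1.27) rose, though neither was called in fits of only the 6 libraries. Of 30 BMP and TGF-beta genes 6 rose, or 3 without the first P8 library or any 1 P10 library, among them Eng (1.02) and Skil (0.86) under both scalings.

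Markers of other cells moved in different directions. The only list whose members all fell was that of lymphocytes and mast cells, where 4 of 12 were members, all of them mast cell protease genes, and where Cd3e, Cd3g, Cd2, Trbc1 and Nkg7 were listed at 0 in all 6 libraries. Cma1 (chymase) went from 3.97, 4.97 and 4.64 to 0.408, 0.201 and 0.280 (-2.09, SE 0.14, limma adjusted p = 1.64e-07), Tpsb2 (tryptase) fell by 1.79, Mcpt4 by 1.44 and Cpa3 by 0.99. Their list summed to 13.1 to 14.5 at P8, 2.16 to 2.27 at P10 and 2.21 to 3.32 at P13. All of these members passed the limit of 1 FPKM through their P8 values. Of all members 1.16% fell.

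Of 12 Schwann cell and glial markers, 4 were members and 2 rose, against 4.59% of all members. Among the 2 risers, Gfap, an intermediate filament gene of glia, stood at 0.772, 1.12 and 0.804 at P8 and at 27.1, 23.6 and 27.3 at P10 (3.83, SE 0.15, limma adjusted p = 5.71e-10), and at 0.901 to 1.18 at P13. Gfap passed the limit of 1 FPKM through its P10 values alone. The lineage factor Sox10 was below the limit, at 0.519 to 0.773 and 0.959 to 1.59. The summed list, most of it Pmp22, was 501.1 to 634.1 at P8 and 715.2 to 766.4 at P10.

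Macrophage markers summed to 3.55 to 4.19 and 9.08 to 10.5, with 0 of 2 members called, Lyz2 at 0.82 and C1qb at 0.64. Skeletal muscle markers summed to 10.1 to 15 and 30.3 to 38.9; of their 5 members Acta1 differed by 2.02 and was not called (limma adjusted p = 0.118), while Myog, a muscle differentiation factor, fell from 2.13, 2.09 and 1.29 to 0.544, 0.187 and 0.266 (-1.09, SE 0.12). Myog passed the limit of 1 FPKM through its P8 values alone. Of keratinocyte and melanocyte markers 0 were members, and Krt1, Krt6a, Krtdap and Flg were listed at 0. Endothelial, smooth muscle, sebocyte and erythroid lists had 0 of 2, 0 of 5, 0 of 2 and 0 of 2 members called. The part of these cells in the other differences was not tested.

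Falls were fewer than rises after scaling, while as deposited they were more, as given above. The next count takes genes called under both scalings, without overlap of the groups and with a mean of at least 10 where higher. Clone, accession and pseudogene names were left out, and 19 such genes were lower against 145 higher. Slc9a9, an endosomal sodium-proton exchanger gene, fell from 15.4, 16.3 and 13.6 to 4.47, 4.98 and 5.09 (-1.46, SE 0.18) and was at 11.9 to 13.3 at P13. Msmp, which encodes a secreted microseminoprotein, fell from 21, 20.1 and 18.7 to 7.46, 8.37 and 6.34 (-1.32, SE 0.26), with 67.4 to 81.3 at P13. Txnip, the glucose-induced inhibitor of thioredoxin, fell from 36.7, 38.2 and 33.4 to 20.2, 19.8 and 20 (-0.82, SE 0.11), with 43.4 to 51.9 at P13. For all 3 the P10 libraries were below those of both neighbouring stages. Osr1, a transcription factor of connective tissue, fell by 0.82 and the potassium channel gene Kcnn2 by 0.83, both lost in 2 alternatives that fitted only these 6 libraries. Eif2s3x (-0.64), Fam19a5 (-0.61), Cercam (-0.57), Dab2 (-0.51), Cdkn2c (-0.47) and Fam136a (-0.46) completed the falls named by size; of 17 alternatives the call was lost in 9 for Cercam, 5 each for Cdkn2c and Fam136a, 4 for Dab2 and 0 for Eif2s3x and Fam19a5.

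Of 4 sex-linked members 1 fell, Xist, and 0 rose. Xist, the RNA of the inactive X chromosome, stood at 2.5, 2.28 and 2.34 at P8 and at 0.0755, 0.129 and 0.0399 at P10 (-1.64, SE 0.35, limma adjusted p = 0.0129), not called without the third P10 library. Xist passed the limit of 1 FPKM through its P8 values alone. It is expressed in female cells. Its antisense partner Tsix was at 15.6, 18.4 and 11.6 and at 0, 0.158 and 0.0399; the strand used in counting is not given in the sources used here, so reads of this locus cannot be split. The Y-linked Ddx3y was at 2.27 to 2.82 and 7.96 to 8.66 (1.41, limma adjusted p = 0.0621) and Eif2s3y at 1.65 to 2.53 and 5.44 to 5.80 (1.06, limma adjusted p = 0.251), neither called, though 2 sex-linked genes were called higher in fits of only the 6 libraries. Kdm5d, also Y-linked and below the limit, was at 0.282, 0.265 and 0.621 at P8 and at 0.589, 0.561 and 0.306 at P10, which overlap. All P8 libraries held Xist and Y-linked transcripts together, while the P10 libraries were near 0 for Xist. The labels give no sex, so age and the mix of sexes cannot be told apart.

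The most extreme differences of all belonged to processed gene copies. Taking pseudogenes and Eno1b with an absolute difference of at least 2.5, chosen after their values were seen, 8 were higher and 4 lower. Gm13456, a copy that matches the elongation factor gene Eef1a1 at 96.76% over 1390 bases, stood at 1.11 to 1.67 at P8, 582 to 735 at P10 and 0.58 to 1.5 at P13. Gm8210 and Gm13841, whose values are identical, and Gm10709 match Rpl29 at 99.38%, 99.38% and 99.17%, and the first pair went from 0.233 to 1.37 up to 175 to 193. The closest functional genes were not called: Eef1a1 differed by 0.19 and Rpl29 by -0.06.

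Other copies went the opposite way. Gm10036, which matches Rpl11 at 99.25%, was at 300.2 to 458 at P8, at 0.493 to 4.65 at P10 and at 486 to 707 at P13, while Rpl11 itself was at 765.9 to 1306 in all 6 and was not called (0.48). Eno1b, a copy of the enolase gene Eno1 with 99.45% identity, was at 47.8 to 54 at P8, 0 to 0.59 at P10 and 129 to 181 at P13, and Eno1 was not called (0.36). Gm4735 matches Eno1b at 99.77% and moved with it. Reads of such copies can be split by the counting, so these values are uncertain as levels of the copies. The same holds for the replication-dependent histone genes Hist1h2aj, Hist1h2ah and Hist1h2ad (rises of 4.95, 4.91 and 4.66), members of a large family of near-identical genes.

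**Figure D5:**
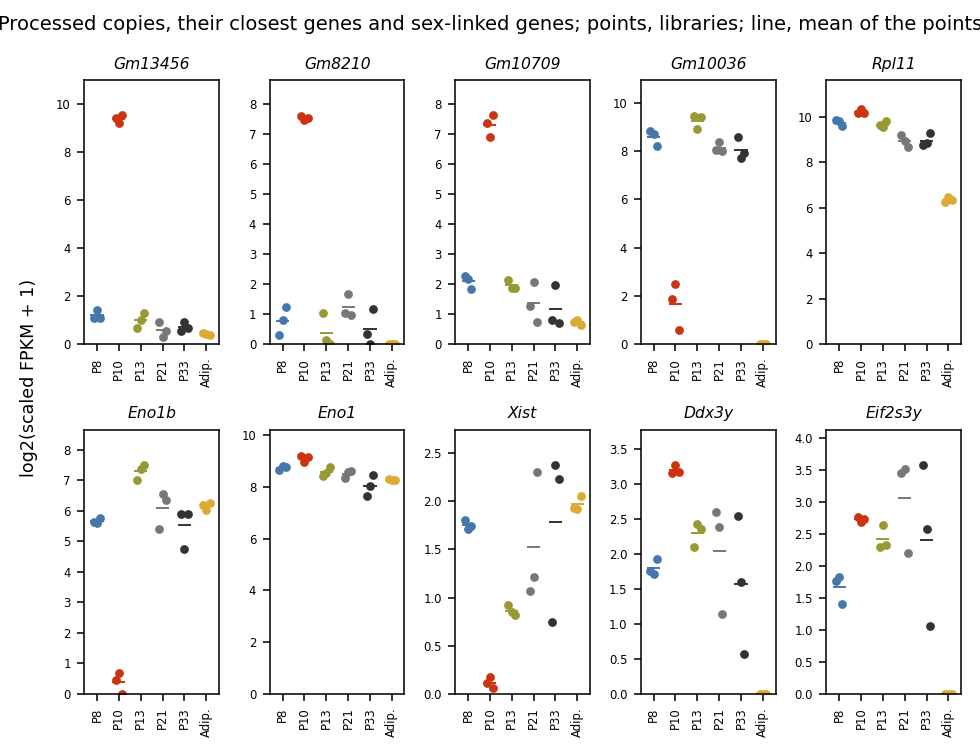
Levels (y, log2 of scaled FPKM plus 1, axis from 0) of processed copies, 2 of their closest genes and 3 sex-linked genes in the 18 libraries of 6 groups; Adip. marks P33 adipocytes and lines mark the mean of the points. The P10 libraries alone are high in Gm13456, Gm8210 and Gm10709 and are near 0 in Gm10036 and Eno1b, where of the other groups the adipocytes are at 0 in Gm10036 and none in Eno1b; Rpl11 and Eno1 were not called.

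Members near the limit of the selection were low. The value ranked 3 among the 6 libraries decides membership: it was under 1.1 FPKM in 278 members, and at least 0.9 in 351 genes outside. In all, 8210 members reached 1 FPKM in all 6 libraries, 201 in all P8 and 0 P10 libraries and 43 in all P10 and 0 P8 libraries. The 201 and the 43 had to differ between the stages and are no support for a direction. Among them were Gfap and Fosl1, which passed through P10. Xist, Tsix, Myog, Eno1b, Gm4735 and the mast cell protease genes passed through P8.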

How the data were processed

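RNA sequencing libraries of sorted ear cartilage cells at P8 and P10 were compared, 3 per stage. Gene values are FPKM as calculated by the authors, deposited with 2 decimals. The aligner was STAR 2.4.2a with build mm10, per the submitters' processing notes; how genes were quantified and with which annotation and strand setting is not given in the sources used here. The deposited quality table holds a count of total reads per library and an alignment rate in percent. Without counts per gene, counting intervals cannot be formed, and 0 does not show absence. No 2 libraries were identical (0 pairs), and 0 per-sample columns were left unused.

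FPKM were divided by median-of-ratios factors over 12656 genes above 0 in all 18 libraries and changed to log2(value + 1). All 18 libraries entered a linear model of 6 group means (limma 3.58.1, R 4.3.3, mean-variance trend). It covered the 13815 genes that reached 1 FPKM in 3 or more libraries. P-values were two-sided and adjusted by Benjamini-Hochberg over these genes; calls have adjusted p below 0.05. Intervals are 95%. The median SE was 0.168. On simulated data of 13278 genes, 66% of 100 log2 changes of 1 and 95% of 100 changes of 2 were recovered, with 12 false calls. The changed genes were drawn from the more abundant ones at P8, so recovery of low genes was not tested. Noise was independent between genes and libraries, so effects shared within a preparation were not simulated. Coordinates are GENCODE M21, GRCm38, which holds 99.7% of the members, and copies were matched to transcripts by BLAST.

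Genes were named by a rule: the 14 largest rises and 14 largest falls called under both scalings, without overlap of the groups, at a mean of 10 or more scaled FPKM where higher, leaving out clone, accession and pseudogene names; for each list, its largest called changes, 4 at most; and 19 genes of interest. It named 114 genes, of which the text gives a part; some listed genes are not reported here. Other names were chosen after their values were seen. The members, the 46 lists and the rule were chosen with earlier results of these data known, so lists are counted and not tested. Figures used matplotlib 3.10.9 under Python 3.11.15.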

Additional observations from a re-analysis of the deposited data

How the results depend on the processing

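Of the 98 named genes that were called, 46 remained called under every alternative tried and 0 reversed. As deposited, without scaling, 76 of the 98 remained called, and the counts were 247 higher and 1225 lower in place of 455 and 115. In a fit of only the 6 libraries the lower count was 44, with median-of-ratios factors over those 6 it was 53, and among the 5846 genes with a mean of at least 5 FPKM it was 75. As deposited and in only the 6 libraries, an alternative chosen after seeing the data, the counts were 150 higher and 161 lower, and the immediate early list had 11 risers in place of 25. Leaving out 1 library in turn gave 311 to 572 higher and 59 to 136 lower genes; the lower count was 69 without P8 replicate 1, 70 without P8 replicate 2, 59 without P10 replicate 1 and 70 without P10 replicate 3. Quantile normalization gave 321 higher and 162 lower, or 66.5% of calls higher. Fibroblast and perichondrium risers were 8 of 17 as deposited and 8 after quantile normalization, in place of 13, and 9 to 12 with 1 library left out. The causes of these shifts were not tested, beyond the smaller number of genes or libraries fitted.

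Of all called genes, 1 had the opposite sign as deposited, Rtn3 (0.29, and -0.03 as deposited, not called there). Among the genes named in the report, direction turned only in genes that were not called: Col2a1 (-0.11) after quantile normalization; Sox9 as deposited (-0.24, also in only the 6 libraries) and after quantile normalization (-0.29); Cytl1 as deposited (-0.24, also in only the 6 libraries), after quantile normalization (-0.42) and with 1 library left out (from -0.10 without P8 replicate 3 to 0.20 without P8 replicate 2); Fasn as deposited (-0.071, also in only the 6 libraries). With 1 library left out, Dgat2 ranged from -0.18 without P8 replicate 3 to 0.011 without P8 replicate 2, with 0.004 without P10 replicate 2. Plin2 ranged from -0.084 without P8 replicate 3 to 0.033 without P8 replicate 1, with 0.007 without P8 replicate 2 and 0.010 without P10 replicate 2.

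With the replicate number as a block, 475 genes were higher and 117 lower. The numbers do not pair the libraries: same-numbered libraries of the stages had correlated deviations of -0.064, 0.045 and 0.117. FPKM without counts give no depth per gene, so differences of low genes near 1 FPKM rest on the spread between libraries alone.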
